A study of Mus musculus with 12 samples.

Results

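The genes described here are those of the 4 mouse Hox clusters, HoxA on chromosome 6, HoxB on chromosome 11, HoxC on chromosome 15 and HoxD on chromosome 2. Members were the genes whose probe sets on the array carried a single symbol made of Hox, a cluster letter and a paralogue number. This gave 33 Hox genes with 48 probe sets, among 18193 genes with a probe set of their own, and where a gene had several, the one with the highest mean over the 12 arrays stood for it. RefSeq lists 39 such genes in the mouse, and the 6 without a probe set of their own here were not analysed. Of the 33 genes, 15 lay above the filter level of 92.0 intensity units on at least 3 arrays and were tested, beside 14181 genes tested in all. The other 18 did not pass and are described by their values. Some of the 15 passed only through the arrays of the groups where they were high, so counts among them do not speak for all members.

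Hox genes encode homeodomain transcription factors that give cells their position along the head to tail axis of the embryo. Their order on the chromosome matches the order in which they are used, with low paralogue numbers active early and toward the head, and high numbers active late and toward the tail. Hox proteins bind DNA together with TALE homeodomain partners of the Pbx and Meis families, and Polycomb and Trithorax proteins keep the clusters silent or active. In the mouse, primordial germ cells arise in the posterior embryo, where Hox genes are active, and some Hox transcripts, Hoxa4 among them, are known from the postmeiotic germ cells of the testis.

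The 4 groups of cells were profiled on 3 arrays each, and all were collected by FACS with a gate that the labels do not name. PGC-like cells (PGCLC) were taken at day 6 of differentiation in vitro, and primordial germ cells (PGC) came from the genital ridges of male BDF1 fetuses at E12.5. Spermatid-like cells (SLC) were also made in vitro, and round spermatids (RS) came from the testes of BDF1 mice at 3 weeks. The labels give neither the cell line that the in vitro cells came from nor how SLC were produced, and no group carries a named mutation.

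The authors' values were scaled to a common trimmed mean on every array. The median intensity of an array lay between 73.2 and 107 units, and each array had 44.5% to 53.0% of its probe sets over the filter level. Pearson correlations between arrays of a group were 0.914 to 0.976 for PGCLC, 0.986 to 0.988 for PGC, 0.984 to 0.987 for SLC and 0.977 to 0.985 for RS. The PGCLC arrays thus differed more from each other than those of any other group, and the median SD of log2 values over the Hox genes was 0.71 in PGCLC, 0.33 in PGC, 0.19 in SLC and 0.31 in RS. Marker genes followed the labels by stage: all 11 round spermatid markers tested were higher in SLC than in PGCLC and higher in RS than in PGC, and all 8 primordial germ cell markers were lower in both. Over all genes tested, 29.9% were higher and 27.4% lower in SLC than in PGCLC. In RS against PGC the shares were 31.8% and 37.7%. In bulk samples such as these, fewer cells of a type and less RNA per cell cannot be told apart.

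Most Hox genes were near or under the filter level in all 4 groups. On all 3 arrays of a group, 4 of 33 Hox genes (12.1%) were above 92.0 units in PGCLC and 3 (9.09%) in PGC. The counts were 11 (33.3%) in SLC and 6 (18.2%) in RS. Over all genes with a probe set of their own the shares were 56.5% in PGCLC, 54.4% in PGC, 65.5% in SLC and 57% in RS. Hoxd8 was the gene above the level on every array of the series. The genes above it on all 3 arrays were Hoxa5, Hoxb2, Hoxb3 and Hoxd8 in PGCLC, and the HoxD genes Hoxd8, Hoxd9 and Hoxd10 in PGC. In SLC they were Hoxa3, Hoxa4, Hoxb2, Hoxb3, Hoxc4, Hoxc6, Hoxc8, Hoxc9, Hoxd8, Hoxd9 and Hoxd10, and in RS Hoxa3, Hoxa4, Hoxa9, Hoxb3, Hoxc9 and Hoxd8. At the other end, 11 genes had no array above the level: Hoxa7, Hoxa10, Hoxb5, Hoxb6, Hoxb7, Hoxb13, Hoxc13, Hoxd1, Hoxd11, Hoxd12 and Hoxd13. Paralogues 11 to 13, the most posterior genes, were thus represented among the tested genes by Hoxa11 alone.

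**Figure D1:**
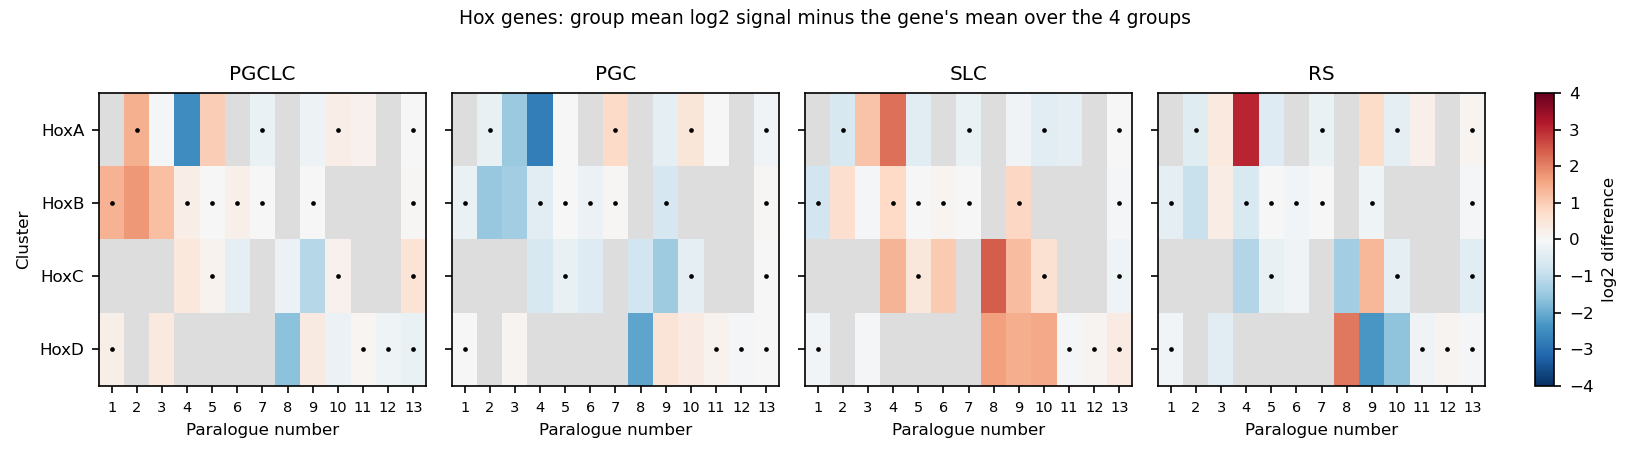
The 4 Hox clusters are drawn as rows and the paralogue numbers as columns, in a panel for each group. Colour is the group mean of log2 intensity minus the mean of the 4 group means of that gene, grey marks a gene without a probe set of its own, and a black dot marks a gene that was not tested. Hoxa4 and Hoxd8 stand high in both SLC and RS, and Hoxb2 stands high in PGCLC.

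The comparison of PGCLC with PGC asks how the in vitro cells differ from the fetal cells they are set beside. Of the 15 tested Hox genes, 3 rose in PGCLC and 0 fell, all 3 of them anterior genes of paralogue groups 2 and 3. A gene was called where the adjusted p of the limma fit was under 0.05 and the difference at least 2-fold. Among all 14181 genes, 10.4% were called higher in PGCLC and 1.61% lower. The median difference of the tested Hox genes was 0.31 on the log2 scale, against 0.01 over all genes tested. Of all genes called, 86.5% were higher in PGCLC with the authors' scaling, 73.7% after quantile normalization and 63% with arrays centred on their medians, and the same number of Hox genes was called each time.

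Hoxb2, an anterior gene with a role in hindbrain segments, had 582, 118 and 356 units on the 3 PGCLC arrays, against 23.6, 4.62 and 10.2 units on the PGC arrays. All PGCLC arrays lay above all PGC arrays, and the PGC values were under the floor of 30.7 units to which low values were raised. The difference was at least 9.44-fold, a log2 difference of 3.24 ± 0.48 (SE), with an adjusted p of 0.00152 in limma. Hoxb3, its neighbour in the cluster, had 434, 122 and 374 units in PGCLC against 58.1, 31.0 and 49.9 units in PGC. The groups did not overlap, and the difference was 6.04-fold (log2 2.60 ± 0.43 SE, adjusted p = 0.00262 in limma). Hoxa3, which is needed for the thymus and other derivatives of the pharyngeal arches, had 127, 76.0 and 113 units in PGCLC, and 52.1, 7.29 and 34.6 units in PGC. It was at least 2.70-fold higher (log2 1.43 ± 0.32 SE, adjusted p = 0.00972 in limma). All 3 calls were lost when only the 6 arrays compared were fitted, with adjusted p values of 0.0614 for Hoxb2, 0.0707 for Hoxb3 and 0.0668 for Hoxa3. In that fit 170 genes of the whole table were called higher and 7 lower, against 1468 and 229 with all 12 arrays. With the mean of all its probe sets, Hoxa3 had a log2 difference of 0.94, under 2-fold, and with the floor raised to the filter level it had one of 0.25 (adjusted p = 0.508).

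The untested genes of paralogues 1 to 3 were Hoxa2, Hoxb1 and Hoxd1. Hoxd1 had 19.9, 40.0 and 48.9 units in PGCLC against 31.8, 39.5 and 5.62 units in PGC. It was not called with no filter (log2 0.21). Hoxa2 and Hoxb1 had values of the same order over the PGCLC arrays. Hoxb1, which sets the identity of a single hindbrain segment, had 324, 54.3 and 178 units in PGCLC, and 58.0, 56.4 and 6.44 units in PGC. Hoxa2, which acts in the hindbrain and in a branchial arch, had 261, 46.8 and 171 units in PGCLC and 32.9, 42.1 and 40.8 units in PGC. For both, the PGCLC arrays of replicates 1 and 3 were above every PGC array, while that of replicate 2 was close to the PGC values. In a fit with no filter over 18193 genes, Hoxa2 had a log2 difference of 1.74 (adjusted p = 0.0382 in limma) and Hoxb1 one of 1.65 (adjusted p = 0.0898).

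The upstream sequences of these 2 genes are shown because regulatory elements of both are textbook targets of Hox, Pbx and Meis proteins, which are members and partners described here. The sequences are RefSeq's 250 bases before the annotated start in GRCm38.p6, chr6:52164832-52165081 on the minus strand and chr11:96365508-96365757 on the plus strand, printed 5′ to 3′ in the direction of the gene. Capitals mark matches, on either strand, to TGATNNAT, a pair of Hox and Pbx half-sites, and to TGACAG, the core bound by Meis and Tgif proteins.
Hoxa2: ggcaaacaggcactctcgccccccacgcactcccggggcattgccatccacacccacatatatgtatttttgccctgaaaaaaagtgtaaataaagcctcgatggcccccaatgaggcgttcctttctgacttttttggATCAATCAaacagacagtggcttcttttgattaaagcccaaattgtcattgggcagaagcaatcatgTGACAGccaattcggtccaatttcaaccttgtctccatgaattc
Hoxb1: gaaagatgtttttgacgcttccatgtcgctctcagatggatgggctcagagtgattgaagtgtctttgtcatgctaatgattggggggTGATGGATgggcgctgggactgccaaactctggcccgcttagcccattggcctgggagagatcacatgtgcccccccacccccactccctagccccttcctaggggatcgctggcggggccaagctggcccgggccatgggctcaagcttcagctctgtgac
TGATNNAT was found in 7.683% of all 32851 RefSeq promoters searched and in 4 of the 24 Hox promoters, which were those of Hoxa2, Hoxb1, Hoxb8 and Hoxd11. TGACAG was in 15.859% of all and in 2 Hox promoters, those of Hoxa2 and Hoxa3. The 24 sequences belonged to 22 Hox genes, 19 of which had a probe set of their own. A match describes the letters of the window and is not a measured binding site.

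The other tested Hox genes were not called between PGCLC and PGC. The HoxD genes that were above the filter level on every PGC array had close PGC values and wide PGCLC values. Hoxd9, a posterior gene used in the limb and lower trunk, had 82.5, 1087 and 458 units in PGCLC, against 439, 351 and 373 units in PGC. Hoxd10, its posterior neighbour, had 42.1, 232 and 61.6 units in PGCLC and 109, 141 and 125 units in PGC. For both genes the PGCLC arrays lay on either side of the PGC arrays. The fitted log2 differences were -0.16 ± 0.67 for Hoxd9 (SE, adjusted p = 0.901 in limma) and -0.56 ± 0.48 for Hoxd10 (SE, adjusted p = 0.416). Hoxa5, which is needed for lung and airway development, had 217, 236 and 151 units in PGCLC and 63.3, 109 and 151 units in PGC, with a log2 difference of 0.96 (adjusted p = 0.165 in limma). Hoxc4 had 54.2, 119 and 130 units in PGCLC and 12.6, 11.5 and 96.8 units in PGC, with a log2 difference of 1.07 (adjusted p = 0.094).

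Which Hox genes stood high was not the same on the 3 PGCLC arrays. Relative to the PGC mean, Hoxb2 stood 4.24, 1.94 and 3.53 higher on the log2 scale on the first, middle and last PGCLC array, and Hoxb3 3.28, 1.45 and 3.06 higher. Hoxd9 stood at -2.22, 1.5 and 0.25, and Hoxd10 at -1.56, 0.90 and -1.01. Of the 4 tested genes of paralogues 2 and 3, 3 had their lowest PGCLC value on the middle array, and of the 11 tested genes of paralogues 4 to 11, 6 had their highest PGCLC value there. The marker lists also differed between these arrays. The 9 gonadal germ cell markers had median log2 values of 8.11, 11.30 and 10.04 on the PGCLC arrays, in the same order, against 11.43 to 11.61 on the PGC arrays. Of the 8 neural markers, Zic1, Sox1, Tubb3 and Neurod1 rose in PGCLC and 4 were not called. Those 4 were Otx2 (log2 difference -0.58), Pax6 (-0.56), Nes (0.52) and Sox3 (0.07). The neural list had medians of 8.59, 7.82 and 8.48 in PGCLC against 7.38 to 7.42 in PGC. Its summed level was 2423 to 5894 units against 1938 to 2127. The 15 fetal gonad somatic markers, of which 4 rose, had medians of 6.89, 9.18 and 8.38 in PGCLC against 7.74 to 7.99 in PGC. Their summed level was 6252 to 16102 units in PGCLC against 5533 to 6646 in PGC. Zic1, a neural gene chosen after its values were seen, had 2790, 207 and 2094 units in PGCLC and 6.93, 12 and 28.4 units in PGC. These values are part of the summed level of the neural list. Of 9 markers of posterior mesoderm and caudal epiblast, 3 rose and 2 fell, and their summed level was 1731 to 2092 units in PGCLC against 2012 to 2290 in PGC. Of 9 blood and endothelium markers, Csf1r, Cd68 and Adgre1 rose and Pecam1 fell, and their summed level was 3861 to 16829 units in PGCLC against 13203 to 14047 in PGC. Most of that sum came from Hbb-y, which was not called and averaged 7992 units in PGCLC and 11649 in PGC. Of 19 testis somatic markers, Clu, Acta2, Vim, Col1a1 and Col1a2 rose and 0 fell, and their summed level was 23975 to 26604 units in PGCLC against 16050 to 17896 in PGC. Col1a1 and Col1a2 are also among the 4 fetal gonad somatic markers that rose. Beside these counts, 10.4% of all genes tested were called higher in PGCLC and 1.61% lower. The part of these markers in the Hox differences was not tested. Without the first PGCLC array, 5 Hox genes were called higher, namely Hoxa3, Hoxb2, Hoxb3, Hoxc4 and Hoxd8. Without the middle array Hoxd10 was called lower as well as the 3 genes higher. Leaving out these arrays also changed the calls over all genes, as given in the last section. These changes are thus not read as particular to Hox genes.

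**Figure D2:**
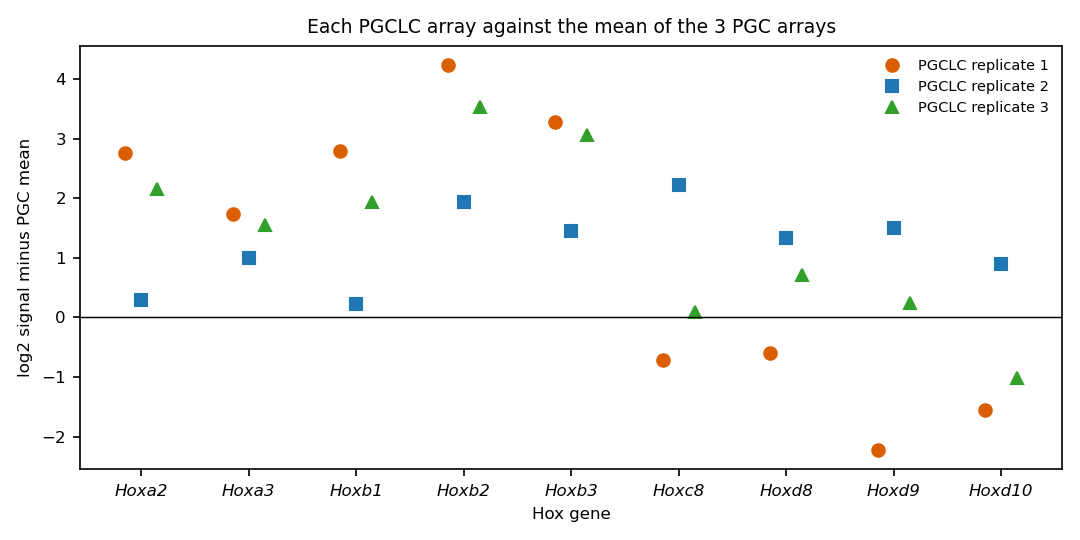
Each PGCLC array is set against the mean of the PGC arrays, as a log2 difference for 9 Hox genes. The genes are ordered by cluster and, within a cluster, by paralogue number. The anterior genes Hoxb2 and Hoxb3 are highest on replicates 1 and 3, and the posterior genes Hoxd9 and Hoxd10 are highest on replicate 2.

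The comparison of SLC with RS asks the same of the later stage. Of the 15 tested Hox genes, 6 rose in SLC and 0 fell. They were Hoxb2, the HoxC genes Hoxc4, Hoxc6 and Hoxc8, and the HoxD genes Hoxd9 and Hoxd10. Over all genes tested, 24% were called higher in SLC and 3.44% lower. The median of the tested Hox genes was 0.37 on the log2 scale, against -0.15 over all genes.

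Hoxc8, a gene of the thoracic region, had 408, 472 and 502 units in SLC, against 3.95, 16.2 and 37.9 units in RS. It was at least 13.9-fold higher (log2 3.80 ± 0.56 SE, adjusted p = 0.000132 in limma). Hoxd9 had 779, 708 and 750 units in SLC and 67.5, 44.0 and 53.5 units in RS, a difference of 13.8-fold (log2 3.78 ± 0.67 SE, adjusted p = 0.000485). For both genes every RS array was under the filter level, and every SLC array was far above every RS array. Hoxd10 had 271, 329 and 247 units in SLC against 6.83, 32.1 and 33.9 units in RS, at least 8.69-fold higher (log2 3.12 ± 0.48 SE, adjusted p = 0.000176 in limma). Hoxc4, used at the neck and upper trunk, had 144, 207 and 198 units in SLC and 5.99, 16.6 and 2.81 units in RS, at least 5.88-fold higher (log2 2.56 ± 0.45 SE, adjusted p = 0.000471). The RS values of Hoxc4 were all under the floor.

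Hoxb2 and Hoxc6 were called with smaller differences. Hoxb2 had 136, 149 and 130 units in SLC and 15.8, 51.5 and 63.5 units in RS, at least 2.97-fold higher (adjusted p = 0.0132 in limma). Its call was lost without the first RS array (log2 1.27, adjusted p = 0.0563), with median centring (0.96, adjusted p = 0.0853) and with the floor raised to the filter level (0.58, adjusted p = 0.258). Hoxc6, a gene of the upper trunk, had 269, 245 and 161 units in SLC, against 167, 53.9 and 101 units in RS. These groups overlapped, and the 2.27-fold difference (adjusted p = 0.0158 in limma) was lost under 7 of the alternatives tried, among them leaving out RS replicate 2, SLC replicate 1 or SLC replicate 2 (adjusted p = 0.0621, 0.0595 and 0.0511).

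Hoxa4, Hoxa9 and Hoxd8 were lower on every SLC array than on any RS array but were not called. The differences of Hoxa4 and Hoxa9 were under 2-fold, and Hoxd8 missed both the fold and the p threshold. Hoxa4 had 947, 980 and 949 units in SLC against 1520, 1914 and 1824 units in RS (log2 -0.86, adjusted p = 0.00502 in limma). Hoxa9, a posterior gene of the HoxA cluster, had 89.0, 121 and 100.3 units in SLC and 189, 185 and 191 units in RS (log2 -0.88, adjusted p = 0.00306). Its other probe set, which did not pass the filter, went the other way in this comparison, with a log2 difference of 0.47. Hoxd8 had 2734, 2709 and 2721 units in SLC and 4153, 3642 and 3650 units in RS (log2 -0.48, adjusted p = 0.257). Scaling decides how these differences are read. With every array centred on its median in place of the authors' scaling, the median SLC minus RS difference of all genes was -0.76, that of the Hox genes was -0.24, and Hoxa4, Hoxa9 and Hoxd8 were called lower while 4 Hox genes in place of 6 were called higher. Under that scaling 29.9% of the genes called were higher in SLC, against 87.4% with the authors' scaling and 55.4% after quantile normalization, which called 5 Hox genes higher and 1 lower. Hoxc9, which acts in the thoracic region, had 242, 314 and 259 units in SLC and 207, 408 and 292 units in RS, and the groups overlapped (log2 -0.11 ± 0.45 SE, adjusted p = 0.846 in limma).

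Somatic markers of the testis moved with this comparison. Of 19 tested testis somatic markers, 17 were higher in SLC than in RS, with a median log2 difference of 3.14. Over all genes tested, 24% were called higher and 3.44% lower, which stands beside the counts of both somatic lists. Their summed level was 78027 to 80755 units on the SLC arrays, against 3291 to 4363 units on the RS arrays. Of these markers 1 to 2 lay under the filter level in SLC and 7 to 10 in RS, and Amh and Insl3 were not tested. Of 15 fetal gonad somatic markers, 11 were higher, and their summed level was 58809 to 59699 units in SLC against 2065 to 2445 units in RS. The 2 lists are not separate: Sox9, Nr5a1, Gata4, Wt1, Col1a1, Col1a2 and Inha are in both, and each was called higher. Collagen genes made up most of the fetal gonad sum in SLC, where Col1a1, Col1a2 and Col3a1 averaged 8345, 21947 and 20402 units. The 11 round spermatid markers summed to 151359 to 157179 units in SLC against 208191 to 220721 units in RS. The part of somatic cells in the Hox differences was not tested.

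**Figure D3:**
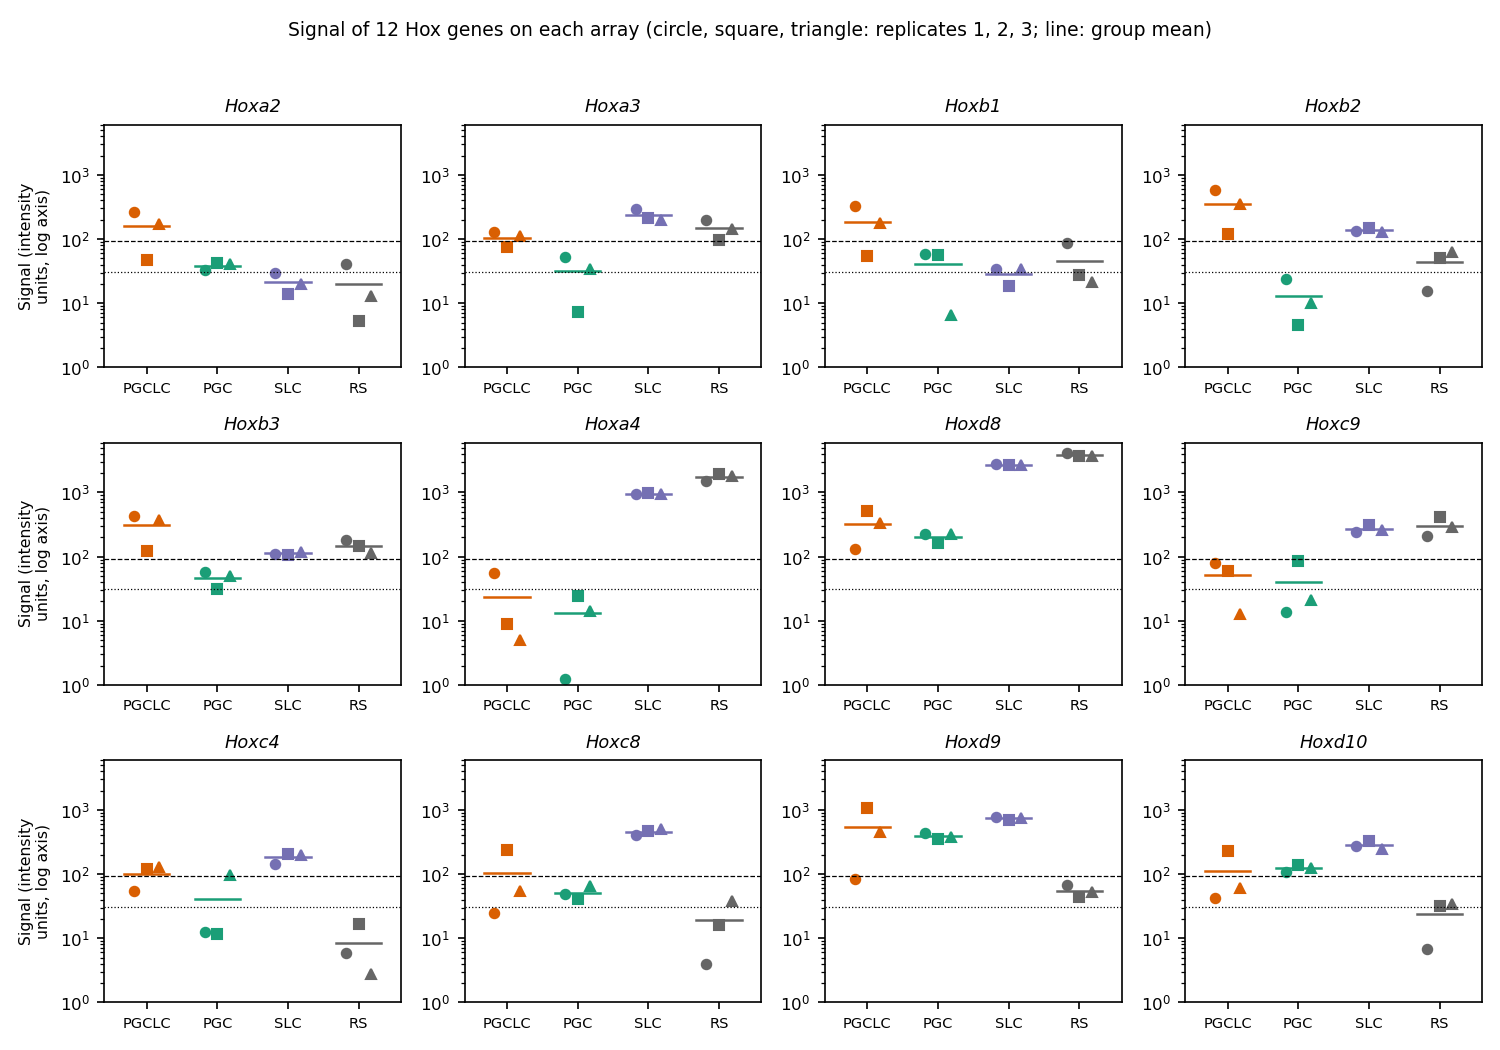
Intensity on a log scale is drawn for each array of the 4 groups, in a panel for each of 12 Hox genes, with circles, squares and triangles for replicates 1, 2 and 3, a bar at the group mean, a dotted line at the floor of 30.7 units and a dashed line at the filter level of 92.0 units. Hoxc8, Hoxd9 and Hoxd10 lie high in SLC and low in RS, and the PGCLC points of Hoxd9 are spread from 82.5 to 1087 units.

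Between the stages, the fetal and spermatid samples from the animal were compared as RS minus PGC, and the in vitro samples as SLC minus PGCLC. The comparisons above use the same arrays, so they are not independent of these. In RS against PGC, 6 Hox genes rose, Hoxa3, Hoxa4, Hoxa9, Hoxb3, Hoxc9 and Hoxd8, and 2 fell, Hoxd9 and Hoxd10. Over all genes tested, 31.8% were called higher in RS and 37.7% lower. The median Hox difference was 0.36 on the log2 scale against -0.23 over all genes.

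Hoxa4 had 1520, 1914 and 1824 units in RS, and 1.24, 24.0 and 14.2 units in PGC. It was at least 56.7-fold higher, a log2 difference of 5.83 ± 0.22 (SE), with an adjusted p of 1.53e-10 in limma. Hoxd8, of the middle of the HoxD cluster, had 4153, 3642 and 3650 units in RS against 225, 163 and 225 units in PGC, 18.9-fold higher (log2 4.24 ± 0.36 SE, adjusted p = 3.07e-07). Both genes have another probe set, which was also higher in RS, by log2 differences of 2.96 for Hoxa4 and 3.74 for Hoxd8. Hoxc9 had 207, 408 and 292 units in RS and 13.6, 86.3 and 20.9 units in PGC, at least 6.71-fold higher (adjusted p = 0.000114 in limma).

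Smaller rises were seen for 3 anterior or posterior genes of HoxA and HoxB. Hoxa3 was at least 3.67-fold higher in RS (199.98, 95.6 and 144 units, against 52.1, 7.29 and 34.6 units in PGC). Hoxb3 was 3.21-fold higher (184, 144 and 112 units in RS against 58.1, 31.0 and 49.9 in PGC). Hoxa9 was 2.17-fold higher (189, 185 and 191 units in RS, against 86.6, 74.8 and 100.2 in PGC). The groups did not overlap for any of them. Another probe set of Hoxa9, which lay under the filter, gave a log2 difference of -0.19, so the probe sets of that gene disagree. With the floor raised to the filter level, the differences of Hoxa3, Hoxb3 and Hoxa9 were under 2-fold, with log2 values of 0.61, 0.64 and 0.99.

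The 2 genes that fell lie beside Hoxd8. Hoxd9 had 67.5, 44.0 and 53.5 units in RS against 439, 351 and 373 units in PGC, 7.12-fold lower (log2 -2.83 ± 0.67 SE, adjusted p = 0.00196 in limma). Hoxd10 had 6.83, 32.1 and 33.9 units in RS and 109, 141 and 125 units in PGC, at least 3.85-fold lower (log2 -1.95 ± 0.48 SE, adjusted p = 0.00263), and with the floor raised to the filter level its log2 difference was -0.43 (adjusted p = 0.214). Hoxd10, Hoxd9 and Hoxd8 follow each other on the chromosome in that order, and the first pair was lower in RS than in PGC while Hoxd8 was higher. Their upstream sequences are shown because these neighbours moved in opposite directions. They are RefSeq's 250 bases before each annotated start in GRCm38.p6, chr2:74691641-74691890 on the plus strand, chr2:74697513-74697762 on the plus strand and chr2:74704365-74704614 on the plus strand.
Hoxd10: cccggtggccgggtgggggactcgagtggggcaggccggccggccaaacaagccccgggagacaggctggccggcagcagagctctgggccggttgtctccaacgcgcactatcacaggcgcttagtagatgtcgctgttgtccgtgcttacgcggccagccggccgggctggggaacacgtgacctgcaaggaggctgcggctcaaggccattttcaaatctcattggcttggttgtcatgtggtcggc
Hoxd9: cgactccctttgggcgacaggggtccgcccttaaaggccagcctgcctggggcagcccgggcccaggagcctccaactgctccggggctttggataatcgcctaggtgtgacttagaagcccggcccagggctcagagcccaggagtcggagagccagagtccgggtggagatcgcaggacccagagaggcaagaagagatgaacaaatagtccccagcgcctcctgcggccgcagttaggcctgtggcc
Hoxd8: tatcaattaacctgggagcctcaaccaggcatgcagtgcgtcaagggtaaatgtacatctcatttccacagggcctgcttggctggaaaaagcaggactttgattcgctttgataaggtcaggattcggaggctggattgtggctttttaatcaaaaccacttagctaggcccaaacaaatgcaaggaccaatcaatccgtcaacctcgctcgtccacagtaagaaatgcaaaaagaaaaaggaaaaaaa
These windows held 20 CpG dinucleotides for Hoxd10, 13 for Hoxd9 and 6 for Hoxd8. The lowest and highest counts among the 24 Hox promoters were 2 and 35. Over all 32851 promoters the quartiles were 2 and 16. None of the 3 windows held either motif given above, and no letters are in capitals. They also lacked the caudal motif TTTATG, which was in 10.764% of all promoters and in 5 Hox promoters. The TATA motif, TATAAA, was absent from them on both strands as well, and was in 12.368% of all promoters and in 4 Hox promoters.

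In SLC against PGCLC, 7 Hox genes rose, Hoxa3, Hoxa4, Hoxc6, Hoxc8, Hoxc9, Hoxd8 and Hoxd10, and 2 fell, Hoxa5 and Hoxb3. Over all genes tested, 29.9% were called higher in SLC and 27.4% lower, and the median Hox difference was 1.11 on the log2 scale against -0.07 over all genes. Hoxa4 had 947, 980 and 949 units in SLC and 55.3, 8.78 and 5.09 units in PGCLC, at least 25.6-fold higher (log2 4.68 ± 0.22 SE, adjusted p = 2.01e-09 in limma). Hoxd8 had 2734, 2709 and 2721 units in SLC against 133, 507 and 333 units in PGCLC, 9.64-fold higher (adjusted p = 5.06e-06). The SLC values of both genes lay close together and above every PGCLC array.

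Hoxc8 was 6.28-fold higher in SLC than in PGCLC by the mean log2 values (adjusted p = 0.0011 in limma) and 4.39-fold by the mean signals, with 24.8, 236 and 53.7 units on the PGCLC arrays. Hoxc9 was at least 5.11-fold higher (adjusted p = 0.000489), with 80.0, 60.0 and 12.6 units in PGCLC. Hoxd10 was 3.32-fold, Hoxc6 2.67-fold and Hoxa3 2.28-fold higher. Hoxb3 was 2.43-fold lower in SLC (111, 105 and 120 units) than in PGCLC (434, 122 and 374 units), and Hoxa5 was 2.69-fold lower (106, 36.4 and 102 units in SLC, against 217, 236 and 151 units in PGCLC). The fall of Hoxb3 lost its call without the first PGCLC array (adjusted p = 0.0703) or the last (adjusted p = 0.0706), and that of Hoxa5 without the middle PGCLC array (0.0505) or the middle SLC array (0.1). The difference of Hoxa3 was just under 2-fold without the middle PGCLC array. Another probe set of Hoxb3 went the other way in this comparison, with a log2 difference of 0.89, and so did one of Hoxa3, with -0.86 against 1.19 for the one used. The other probe set of Hoxa5, which did not pass the filter, gave 0.06 against -1.43 for the one used. In the fit with no filter, Hoxa2 and Hoxb1 were lower in SLC than in PGCLC by log2 differences of -2.06 (adjusted p = 0.0048 in limma) and -2.15 (adjusted p = 0.0128).

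**Figure D4:**
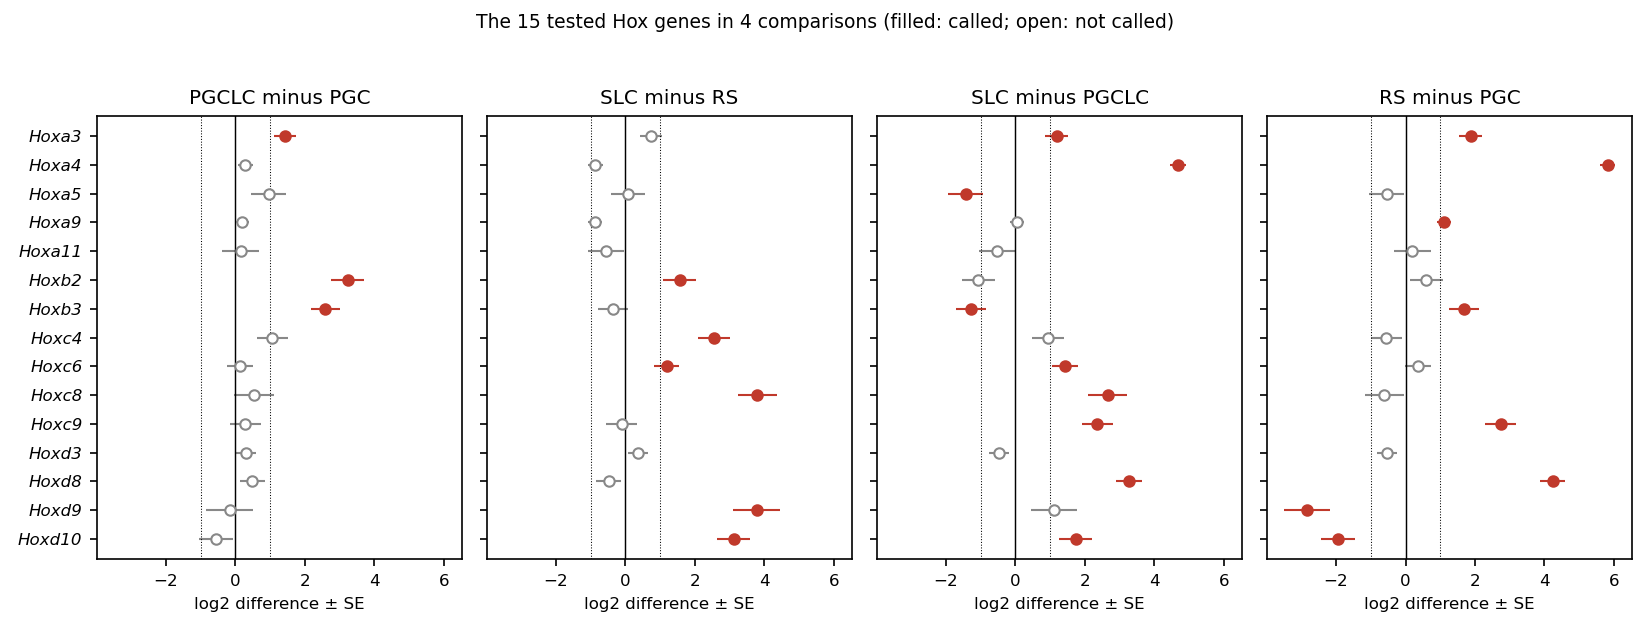
The fitted log2 difference of each of the 15 tested Hox genes is drawn with its SE for the 4 comparisons, filled in red where it was called, with dotted lines at 2-fold. Hoxa4 and Hoxd8 lie far to the right in both comparisons between stages, and Hoxd9 and Hoxd10 lie to the left in RS minus PGC.

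Whether the change between stages differed in vitro was tested as an interaction, the SLC minus PGCLC difference less the RS minus PGC difference. It was positive for 3 Hox genes, Hoxc8, Hoxd9 and Hoxd10, and negative for 3, Hoxa4, Hoxa9 and Hoxb3. Over all genes tested, 21.1% were called positive and 11.2% negative. Positive values made up 65.4% of these calls, against 55% after quantile normalization and 38.7% with median centring, under which 6 Hox genes were negative and 3 positive. Hoxd9 had a value of 3.94 ± 0.95 (SE, adjusted p = 0.00558 in limma), with SLC above 2 of 3 PGCLC arrays and RS below all PGC arrays. Hoxb3 had a value of -2.96 ± 0.61 (SE, adjusted p = 0.00211). For the other 9 tested genes the adjusted p was 0.0592 or more.

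The calls are given by cluster as a description without a test, over few tested genes. In PGCLC against PGC, 1 of 5 tested genes rose in HoxA, both of 2 in HoxB, and 0 of 4 in HoxC and in HoxD, beside 10.4% of all genes. In SLC against RS, 0 rose in HoxA, 1 in HoxB, 3 in HoxC and 2 in HoxD, beside 24% of all genes. In RS against PGC, 3 rose in HoxA, and 1 each in HoxB, HoxC and HoxD, beside 31.8% of all genes. There 2 fell, both in HoxD, beside 37.7% of all genes. In SLC against PGCLC, 2 rose and 1 fell in HoxA, and 1 fell in HoxB. There 3 rose in HoxC and 2 in HoxD, beside 29.9% of all genes higher and 27.4% lower. By paralogue number, the 3 genes that rose in PGCLC were among the 4 tested genes of paralogues 1 to 3, and none was among the 11 of higher number. Hoxa11 and Hoxd3 were called in no comparison. Hoxa11, needed for the forearm and the uterus, had 23.1 to 110.2 units in PGCLC, 44.1 to 94.5 in PGC, 17.8 to 71.3 in SLC and 52.1 to 111 in RS. Hoxd3, which shapes the upper neck vertebrae, had 80.6 to 121 units in PGCLC, 51.9 to 109 in PGC, 64.2 to 78.9 in SLC and 48.3 to 58.2 in RS.

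Among the 18 untested genes the values lay between 1.48 and 324 units. Besides Hoxa2 and Hoxb1, Hoxb4 and Hoxb9 were above the filter level on 2 arrays, and Hoxa13, Hoxc5 and Hoxc10 on 1. Hoxb4, known for its effect on blood stem cells, had 75.4, 70.1 and 101 units in SLC against 24.0, 11.2 and 4.37 units in RS. Hoxb9, a thoracic gene, had 95, 73.3 and 111 units in SLC and 44.7, 41.3 and 54.1 units in RS. In both genes the SLC arrays lay above the RS arrays for the probe set used. With no filter, Hoxb4 had a log2 difference of 1.40 (adjusted p = 0.0105 in limma). Its other probe set gave 0.07, and there the SLC and RS arrays overlapped. Hoxa7 had 20.4, 22.4 and 16.8 units in PGCLC against 34.2, 80.5 and 89.95 units in PGC, all under the filter level, and a log2 difference of -1.03 (adjusted p = 0.0349) with no filter.

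Hox proteins act with partners, and these were followed as a list of 11 TALE genes, of which 10 were tested. In PGCLC against PGC, 3 rose and 0 fell, with a median of 0.18, and over all genes tested 10.4% were called higher. Meis1 and Meis2 encode partners of Hox and Pbx proteins. Meis1 had 918, 468 and 703 units in PGCLC against 138, 136 and 124 units in PGC, 5.06-fold higher (adjusted p = 0.00113 in limma). Meis2 had 1410, 423 and 1017 units in PGCLC and 125, 182 and 196 units in PGC, 5.14-fold higher (adjusted p = 0.00283). Both had their lowest PGCLC value on the middle array, as Hoxb2 and Hoxb3 did. In SLC against RS, Meis1 rose 3.82-fold and Pbx4 fell 2.02-fold, against 24% of all genes higher and 3.44% lower.

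Between the stages 2 TALE genes rose and 6 fell in each comparison. Over all genes tested, 31.8% were higher and 37.7% lower in RS than in PGC, and 29.9% were higher and 27.4% lower in SLC than in PGCLC. The 2 that rose were Pbx4, whose protein is a Hox partner, and Pknox2, of the Prep family. Pbx4 had 1534, 1625 and 1681 units in RS, and 29.2, 25.9 and 26.1 units in PGC, at least 52.4-fold higher (adjusted p = 4.18e-09 in limma). Pknox2 had 2296, 2561 and 2296 units in RS and 123, 109 and 165 units in PGC, 18.3-fold higher (adjusted p = 4.24e-10). In SLC against PGCLC, Pbx4 was 13.7-fold higher by the mean log2 values and 12.7-fold by the mean signals, and Pknox2 was 4.81-fold higher. The medians of the list were -1.44 in RS against PGC and -1.57 in SLC against PGCLC.

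Of 20 ParaHox, Evx and axial regulator genes, 9 were tested. In PGCLC against PGC 3 rose and 0 fell, with a median of 0.90, against 10.4% of all genes higher. Zfp703 was 5.47-fold higher, Egr2, which drives Hoxa2 and Hoxb2 in the mouse hindbrain, was 3.56-fold higher, and Wnt3a, a ligand of the posterior embryo, was at least 3.27-fold higher. Egr2 had 465, 518 and 568 units in PGCLC against 131, 115 and 202 units in PGC, so its PGCLC arrays lay closer together than those of Hoxb2. In SLC against RS 3 rose and 0 fell, beside 24% of all genes higher and 3.44% lower. Egr2 rose at least 24-fold, Zfp703 at least 8.65-fold and the retinoic acid receptor gene Rarb 6.89-fold. In RS against PGC 2 rose and 3 fell, beside 31.8% of all genes higher and 37.7% lower. In SLC against PGCLC 2 rose and 1 fell, beside 29.9% of all genes higher and 27.4% lower. Evx1, the gene next to the posterior end of HoxA, was at least 3.77-fold lower in RS than in PGC.

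Polycomb proteins hold Hox clusters silent, and 31 of 33 listed genes were tested. The shares of all genes called, which stand beside the counts of the next lists too, were 10.4% higher and 1.61% lower in PGCLC against PGC, 24% and 3.44% in SLC against RS, 31.8% and 37.7% in RS against PGC, and 29.9% and 27.4% in SLC against PGCLC. In PGCLC against PGC, 2 rose and 0 fell: Epop was 4.29-fold and Phc3 2.49-fold higher. In SLC against RS 7 rose and 1 fell, in RS against PGC 4 rose and 18 fell, and in SLC against PGCLC 2 rose and 18 fell. The 7 of 31 higher in SLC are near the share of all genes, 24%. Of the Trithorax proteins and H3K27 demethylases, 15 of 16 were tested. Kdm6b, a demethylase that removes the Polycomb mark, rose 3.03-fold in PGCLC against PGC (adjusted p = 0.00391 in limma), and it was the 1 called gene of that list there. In SLC against RS 5 rose and 0 fell, and in both RS against PGC and SLC against PGCLC 0 rose and 11 of the 15 fell, beside 37.7% and 27.4% of all genes lower.

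The genes near the clusters were counted as well, 23 of 26 of them tested. In PGCLC against PGC 2 rose and 0 fell, beside 10.4% of all genes higher, and in SLC against RS 8 rose and 1 fell, beside 24% higher and 3.44% lower. In RS against PGC 4 rose and 16 fell, beside 31.8% higher and 37.7% lower. Those that rose included Ttll6, which lies beside HoxB and encodes a tubulin polyglutamylase, 27.3-fold, and Skap1, also beside HoxB, at least 7.10-fold. Jazf1, which lies 4 protein-coding genes away from HoxA, rose 6.38-fold. In SLC against PGCLC 4 rose and 10 fell, beside 29.9% of all genes higher and 27.4% lower.

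Antisense RNA genes inside the clusters carry other symbols, and Hoxb5os and Hoxd3os1 were chosen after their values were seen. Another, Hoxa11os, was above the filter level on no array. It had 6.01, 4.69 and 3.21 units in RS against 32.1, 9.38 and 43.3 units in PGC. Hoxb5os, which RefSeq places over Hoxb5 and Hoxb6, had 2303, 2296 and 2171 units in RS against 53.4, 99.5 and 80.2 units in PGC, 30.0-fold higher (adjusted p = 7.46e-10 in limma). Its SLC values were 1324, 1008 and 1367 units, and its PGCLC values 106, 80.0 and 86.5 units, a difference of 13.5-fold. The coding genes Hoxb5 and Hoxb6 were under the filter level on every array. Hoxd3os1, which overlaps Hoxd3, had 2266, 2528 and 2344 units in RS and 39.7, 49.7 and 28.9 units in PGC, 60.5-fold higher by the mean log2 values and 60.3-fold by the mean signals (adjusted p = 3.48e-09). Another probe set of Hoxd3os1 did not follow, with 80.5, 70.6 and 101 units in RS. Labelling in this kit starts from the 3′ end of RNA, and whether these probe sets measure the antisense or the sense transcript was not tested.

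**Figure D5:**
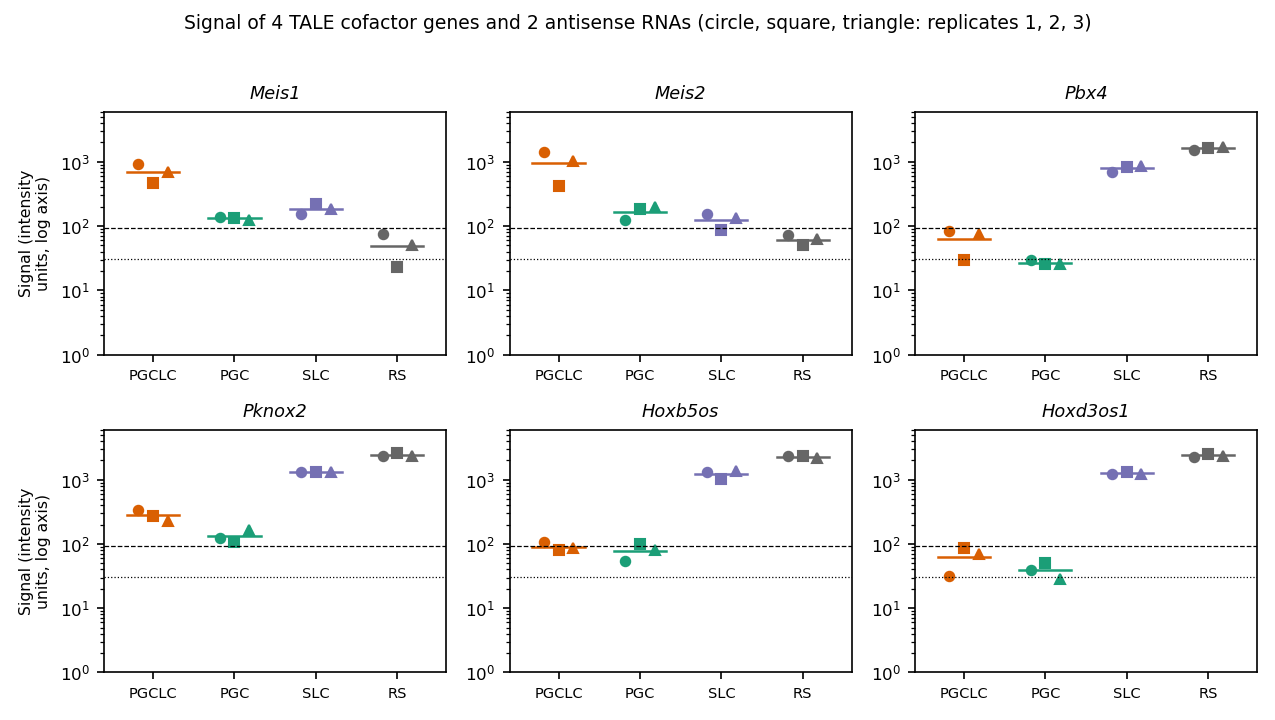
Intensity on a log scale is drawn for each array of the 4 groups for Hox partner genes and the antisense RNA genes Hoxb5os and Hoxd3os1. Meis1 and Meis2 are higher in PGCLC than in PGC, and Pbx4, Pknox2, Hoxb5os and Hoxd3os1 are higher in SLC and RS than in PGCLC and PGC.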

How the data were processed

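Total RNA of 12 samples was measured on Affymetrix 3′ expression arrays. The deposited values are linear intensity per probe set, made by the authors with MAS5 per the submitters' processing notes; its version, background settings and detection calls are not given in the sources used here. Of 45101 probe sets, 64 controls, 932 with several gene symbols and 9160 with none were left out, and symbols were updated by Entrez ID for 34741. The probe set of highest mean stood for a gene, which was kept if above the table median, 92.0 units, on at least 3 arrays. Values under the 25th percentile, 30.7 units, were raised to it before taking log2. The 12 arrays were fitted together in limma 3.58.1 (R 4.3.3), with 4 group means and an intensity trend, and Benjamini-Hochberg adjustment ran over 14181 genes. "At least" marks folds for which the lower group had an array at the floor, provided that mean signals gave at least as large a fold. The fit was tested on simulated data. The labels say biological replicates without naming separate animals or cultures, so p values measure the spread between these samples, and the number of arrays limits precision. Each gene had 1 variance for all 4 groups, so the SE and p of a comparison also draw on arrays outside it. That spread was unequal, with a median SD over the tested Hox genes of 0.71 in PGCLC and 0.19 in SLC. Any Hox gene could be named, with array values for called members; of each list up to 6 called genes. The members, lists and alternatives were chosen with earlier results of these data known.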

Additional observations from a re-analysis of the deposited data

Results flagged for a closer look

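For 6 Hox genes the change between stages differed between the in vitro cells and the cells from the animal, by the interaction test across all genes in limma. The interaction is the SLC minus PGCLC difference less the RS minus PGC difference, on the log2 scale. It was positive for 3 and negative for 3 of the 15 tested Hox genes (20% each). Over all genes tested, 21.1% were called positive and 11.2% negative, so the positive share of the Hox genes was near that of all genes. It was 3.94 for Hoxd9 (adjusted p = 0.00558 in limma), 3.68 for Hoxd10 (adjusted p = 0.00115) and 3.26 for Hoxc8 (adjusted p = 0.0061). It was -2.96 for Hoxb3 (adjusted p = 0.00211), -1.15 for Hoxa4 (adjusted p = 0.0103) and -1.07 for Hoxa9 (adjusted p = 0.0101). Leaving out PGCLC replicate 1 took Hoxa4 to -0.86, and leaving out PGC replicate 2, PGCLC replicate 3 or SLC replicate 1 took Hoxa9 to -0.97, -0.96 and -0.97, all under 2-fold.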

How the results depend on the processing

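Over 32 calls of single Hox genes, the interaction included, and 23 alternative settings (22 for the interaction, which had no fit of 6 arrays), 0 reversed and 16 held their call throughout. With only the 6 arrays compared, 0 Hox genes were higher in PGCLC than in PGC and 1 was lower in SLC than in PGCLC. Quantile normalization left 1 Hox gene lower in SLC than in RS and 1 lower than in PGCLC. Median centring gave 3 lower in SLC than in RS and 6 negative interactions. A floor at the table median left 3 higher in SLC than in RS, 3 higher and 1 lower in RS than in PGC, and 1 negative interaction. With no filter 1 was lower in PGCLC than in PGC and 4 lower in SLC than in PGCLC. The mean of all probe sets of a gene left 0 lower in SLC than in PGCLC and 1 negative interaction, and Hoxa3 then lost all its calls. Adjusted p alone gave 2 lower in SLC than in RS. Leaving out an array in turn, the counts were 3 to 5 higher and 0 to 1 lower in PGCLC than in PGC, and 1 to 2 lower in SLC than in PGCLC. The cause of these changes was not tested. A block for the replicate number gave the same counts (3 and 0 in PGCLC against PGC, 6 and 0 in SLC against RS, 7 and 2 in SLC against PGCLC, 6 and 2 in RS against PGC), apart from 4 positive interactions. Same-numbered arrays had deviations correlated at -0.02 to 0.13, so the numbers do not show a pairing. Over all genes, those lower in SLC than in RS were 488, against 2258 after quantile normalization, 5639 with median centring and 4508 by adjusted p alone. Those lower in PGCLC than in PGC were 229, against 7 with 6 arrays, 381 after quantile normalization, 638 with median centring, 151 with no filter, 470 with array weights and 1904 by adjusted p alone. Leaving out PGCLC replicates 1, 2 and 3 gave 60, 761 and 91, and leaving out PGC replicates 100, 113 and 114. For Hox genes with signals near the floor, folds are bounds or depend on the floor.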
